A study of Macaca fascicularis with 8 samples.

Results

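The genes described here build sterols and fatty acids, or control the enzymes that do. The 40 members are named genes: 18 act on the path to cholesterol, 17 supply, build, lengthen, desaturate or activate fatty acids, and 5 regulate or carry sterols. Each was found in the deposited table by its gene name, or else by the name of its best protein match at 85% identity or more, and of several rows the row with the highest mean was taken. The search found 39 of the 40 among 33121 genes, 8 by gene name and 31 by protein match, and 38 of them were expressed highly enough to be tested. ME1 was not found in this way.

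Cells build cholesterol from acetyl-CoA. The mevalonate arm makes isoprenoid units, these are joined into squalene, squalene is closed into lanosterol, and lanosterol is trimmed step by step into cholesterol. Fatty acid synthesis starts from the same acetyl-CoA, which is carboxylated to malonyl-CoA and built into palmitate, and palmitate or dietary fatty acids are then elongated and desaturated. Both paths are known targets of SREBPs, membrane-bound transcription factors that SCAP escorts out of the endoplasmic reticulum when sterols are scarce and that INSIG proteins hold back when sterols are plentiful. In proliferating cells such as embryonic stem cells (ESCs) both paths supply new membrane.

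Polyadenylated RNA was sequenced from cynomolgus monkey (Macaca fascicularis) ESCs, in 4 libraries of dome-shaped cells and 4 libraries of primed cells. The dome-shaped cells formed domed colonies, passaged well as single cells per the labels, and grew in NHSMV, a knockout DMEM medium with AlbuMAXI (an albumin preparation), N2 supplement, insulin, human LIF, bFGF, TGF-β1, Vitamin C and the kinase inhibitors PD0325901, CHIR99021, SB202190, SP600125 and SB203580. The primed cells formed flat colonies, passaged weakly as single cells, and grew in CESM, which combines a commercial human stem cell medium with a conventional monkey ESC medium. Medium, colony shape, passage behaviour and group coincide, so their parts cannot be told apart. The labels do not say that the libraries of a group came from separate cultures, so the p-values measure the spread between these libraries, which may be technical.

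Values are RPKM, in which the authors divided reads by gene length and sequencing depth. Levels of different genes can be compared only roughly, since 2 rows of 1 gene can differ: ACLY averaged 234 RPKM on a row of 454 bases and 134 RPKM on a row of 1773 bases in dome-shaped cells. The RPKM steps implied 14400000 to 17680000 reads per dome-shaped library and 16360000 to 18080000 per primed library. Dome-shaped replicate 4 stood apart on the first principal component over all genes, with a score of 9.93, where dome-shaped replicates 1 to 3 scored 40.7 to 41.1 and primed replicates -37.0 to -28.6. The pluripotency genes NANOG, SOX2, LIN28A, DNMT3B, TDGF1 and TERF1 were detected in every library. NANOG had 53.4 to 113 RPKM in dome-shaped and 116 to 163 RPKM in primed cells. DNMT3B had 266 to 667 RPKM in dome-shaped and 533 to 852 RPKM in primed cells. TDGF1 had 21.75 to 273 RPKM in dome-shaped and 317 to 515 RPKM in primed cells. TERF1 had 139.5 to 234.5 RPKM in dome-shaped and 268 to 310 RPKM in primed cells. Differences were tested with limma on log2(RPKM + 1) over 15597 genes, and a gene is said to have risen or fallen where its Benjamini-Hochberg adjusted p was below 0.05. Fold changes are dome-shaped minus primed on that log2 scale, with their standard error (SE), and understate changes of low genes. Library values are given in the order of replicates 1 to 4, and errors after ± are SDs over the 4 libraries of a group.

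In dome-shaped cells 13 of the 38 tested members rose and none fell, while 6.38% of all genes tested rose and 7.96% fell (14.3% called in either direction). The median log2 fold change of the members was 0.34, against 0.026 for all genes tested. The groups did not overlap for 12 members, all higher in dome-shaped cells, where 11.5% of all genes were higher without overlap and 10.7% lower. Among these members, ACSS2 reached the 1 RPKM needed for testing in every dome-shaped library but only in primed replicate 3. It was thus tested only through the group where it was higher, which favours this direction. Of the 25 members that were not called, 19 had a fold change above 0 and 6 below it. The changes were small: the 13 that rose had log2 fold changes of 0.38 to 0.69, and none reached 2-fold, whereas 216 of the 995 genes that rose in the whole table did. In bulk RNA, fewer or more cells of a type and less or more RNA per cell cannot be told apart.

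**Figure D1:**
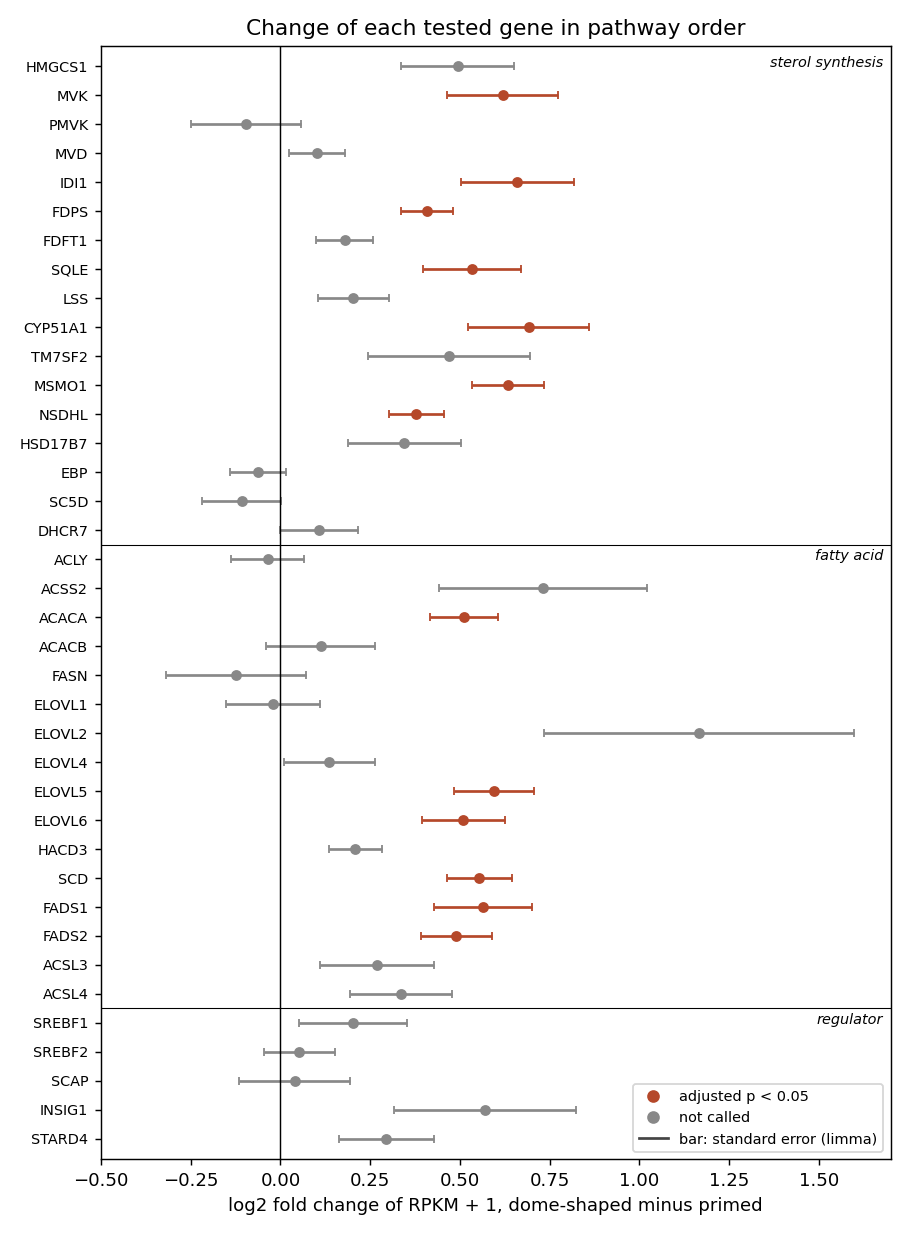
Log2 fold change of RPKM + 1 (horizontal axis, dome-shaped minus primed) for the 38 tested members, in pathway order down the page, with bars of 1 standard error. The 13 called genes lie between 0.38 and 0.69, and the genes that were not called lie between -0.12 (FASN) and 1.17 (ELOVL2).

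Sterol synthesis is described first, in the order of its steps. Of 17 tested genes of the path 7 rose, none fell, and the median log2 fold change was 0.38, while 6.38% of all genes tested rose. The 7 were MVK, IDI1 and FDPS of the mevalonate arm (3 of 6 tested), SQLE between squalene and lanosterol (1 of 3), and CYP51A1, MSMO1 and NSDHL after lanosterol (3 of 8). The count depended on single libraries: it was 3 without dome-shaped replicate 2, dome-shaped replicate 3 or primed replicate 2, and 4 without primed replicate 1 or primed replicate 4. The count of all genes that rose moved as well, to 399, 442, 381, 793 and 487 without those libraries, against 995 with all 8.

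The mevalonate arm opens with ACAT2, which joins acetyl-CoA units, and HMGCS1, the cytosolic HMG-CoA synthase. The ACAT2 row found by the rule had at most 0.0474 RPKM in any library and was not tested. Another row, whose best match is an unnamed protein but 8 of whose 10 matches name ACAT2, held 65.5, 114, 106 and 82.7 RPKM in dome-shaped replicates 1 to 4, against 75.4, 68.3, 65.6 and 57.1 RPKM in primed replicates 1 to 4, with overlapping groups (log2 fold change 0.44, SE 0.17, limma adjusted p = 0.113). That row, like the others below that the rule did not choose, was taken up after its values were seen. HMGCS1 had 139, 208, 170.5 and 191 RPKM in dome-shaped libraries, against 123, 114, 162 and 105 RPKM in primed libraries (log2 fold change 0.49, SE 0.16, limma adjusted p = 0.0654). Its groups overlapped because primed replicate 3 stood above dome-shaped replicate 1, and it was not called. HMGCS1 was called without dome-shaped replicate 1 or primed replicate 3 (limma adjusted p 0.0315 to 0.0367).

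MVK, the kinase that phosphorylates mevalonate, had 10.2, 14.2, 13.5 and 11.2 RPKM in dome-shaped libraries, against 6.37, 6.61, 8.88 and 8.85 RPKM in primed libraries. Every dome-shaped library lay above every primed one, and MVK rose (log2 fold change 0.62, SE 0.15, limma adjusted p = 0.0295). MVK was not called without dome-shaped replicate 2 or 3 or primed replicate 1 or 2 (limma adjusted p 0.0592 to 0.0863). PMVK, which adds the second phosphate, averaged 14.1 ± 3.30 RPKM in dome-shaped and 14.97 ± 1.48 RPKM in primed cells, and MVD, which then removes a carboxyl group to give isopentenyl pyrophosphate, averaged 134 ± 10.7 RPKM in dome-shaped and 124 ± 7.23 RPKM in primed cells. Neither was called, and the 95% intervals of their log2 fold changes ran from -0.44 to 0.25 for PMVK and from -0.075 to 0.28 for MVD. MVK was measured higher, and the genes of the following pair of steps were not called. Whether the changes of these genes differed was not tested.

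IDI1, the isomerase that turns isopentenyl into dimethylallyl pyrophosphate, had 59.7, 104, 81.5 and 76.3 RPKM in dome-shaped libraries, against 55.4, 45.6, 54.3 and 43.8 RPKM in primed libraries. The groups did not overlap, dome-shaped replicate 1 being the lowest of its group, and IDI1 rose (log2 fold change 0.66, SE 0.16, limma adjusted p = 0.0251). IDI1 was not called without dome-shaped replicate 2 or 3 or primed replicate 2 or 4 (limma adjusted p 0.0541 to 0.0721). FDPS, which condenses these units into farnesyl pyrophosphate, the branch point to squalene, prenylation and dolichol, had 176, 165, 156 and 147 RPKM in dome-shaped libraries, against 128, 119, 120.2 and 116 RPKM in primed libraries. It rose with a narrow spread and no overlap (log2 fold change 0.41, SE 0.072, limma adjusted p = 0.00883). Further rows whose best match is FDPS held at most 0.578 RPKM, so few reads were counted on rows that resemble it.

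FDFT1, the squalene synthase and the committed step to sterols, averaged 156 ± 14.5 RPKM in dome-shaped and 138 ± 6.81 RPKM in primed cells and was not called (log2 fold change 0.18, SE 0.080, limma adjusted p = 0.163). SQLE, the squalene epoxidase that is often described as a second control point of the path, had 64.9, 99.6, 87.9 and 86.4 RPKM in dome-shaped libraries, against 53.8, 59.3, 67.1 and 51.2 RPKM in primed libraries. It rose (log2 fold change 0.53, SE 0.14, limma adjusted p = 0.0322), although primed replicate 3 lay above dome-shaped replicate 1. SQLE was not called without dome-shaped replicate 2, 3 or 4 or primed replicate 1, 2 or 4 (limma adjusted p 0.0527 to 0.0837). LSS, which closes the epoxide into lanosterol, averaged 91.8 ± 11.99 RPKM in dome-shaped and 79.1 ± 3.72 RPKM in primed cells and was not called (log2 fold change 0.20, SE 0.10, limma adjusted p = 0.197). LSS was called without dome-shaped replicate 1 (limma adjusted p = 0.0286).

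After lanosterol, CYP51A1 removes the first methyl group. It had 25.1, 41.4, 33.8 and 34.02 RPKM in dome-shaped libraries, against 18.8, 18.3, 26.4 and 18.01 RPKM in primed libraries and rose with the largest log2 fold change of the called members (log2 fold change 0.69, SE 0.17, limma adjusted p = 0.0269). Primed replicate 3 lay above dome-shaped replicate 1, the other 3 primed libraries below all dome-shaped ones. CYP51A1 was not called without dome-shaped replicate 2 or 3 or primed replicate 1, 2 or 4 (limma adjusted p 0.0553 to 0.0763). TM7SF2, a sterol reductase of the following step, had 24.5, 14.9, 14.96 and 15.8 RPKM in dome-shaped libraries, against 8.73, 12.4, 10.9 and 18.1 RPKM in primed libraries, was spread widely in both groups and was not called (log2 fold change 0.47, SE 0.23, limma adjusted p = 0.189). LBR, a nuclear envelope protein that carries out the same reduction, averaged 63.2 ± 6.18 RPKM in dome-shaped and 50.5 ± 2.42 RPKM in primed cells and rose (log2 fold change 0.32, SE 0.085, limma adjusted p = 0.0373). LBR was not called without dome-shaped replicate 2 or 3 or primed replicate 1, 2, 3 or 4 (limma adjusted p 0.0525 to 0.103). It was also not called with median-of-ratios scaling (limma adjusted p = 0.0534) or without the mean trend (limma adjusted p = 0.0650).

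The demethylation complex that acts next is formed by MSMO1, NSDHL and HSD17B7. MSMO1, the methylsterol oxidase, had 94.2, 103, 85.95 and 91.3 RPKM in dome-shaped libraries, against 61.99, 54.4, 70.3 and 54.0 RPKM in primed libraries. All dome-shaped libraries lay above all primed ones, and the adjusted p was the smallest of the members (log2 fold change 0.63, SE 0.10, limma adjusted p = 0.00579). NSDHL, the decarboxylating dehydrogenase of the complex, had 51.4, 55.8, 56.1 and 48.9 RPKM in dome-shaped libraries, against 42.02, 42.6, 38.3 and 39.2 RPKM in primed libraries, also without overlap, and rose (log2 fold change 0.38, SE 0.077, limma adjusted p = 0.0140). HSD17B7, its ketoreductase, averaged 28.5 ± 6.05 RPKM in dome-shaped and 22.1 ± 3.19 RPKM in primed cells, with overlapping groups, and was not called (log2 fold change 0.34, SE 0.16, limma adjusted p = 0.168).

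EBP, the isomerase that moves the ring double bond, averaged 51.4 ± 2.94 RPKM in dome-shaped and 53.8 ± 3.87 RPKM in primed cells. SC5D, the desaturase after it, averaged 59.0 ± 9.35 RPKM in dome-shaped and 63.2 ± 3.54 RPKM in primed cells, and DHCR7, the reductase that yields cholesterol, averaged 69.99 ± 9.67 RPKM in dome-shaped and 64.5 ± 4.23 RPKM in primed cells. None of the 3 was called. The 95% intervals of the log2 fold change were -0.24 to 0.11 for EBP, -0.36 to 0.14 for SC5D and -0.14 to 0.35 for DHCR7, so rises as large as that of MSMO1 (0.63) lay outside all 3 intervals.

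**Figure D2:**
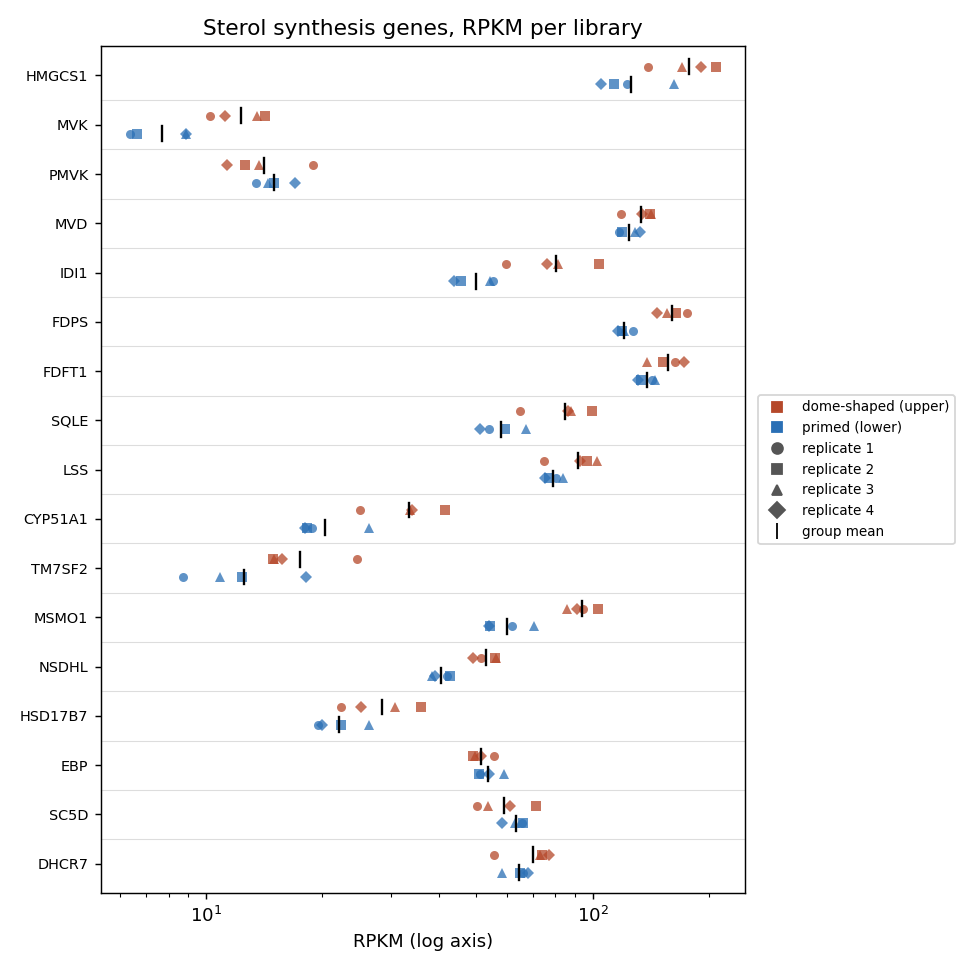
RPKM (log axis) of the 17 tested sterol synthesis genes in each library, dome-shaped above primed for each gene, with the symbol shape giving the replicate and the bar the group mean. MVK, IDI1, FDPS, MSMO1 and NSDHL have no overlap between the groups, and dome-shaped replicate 1 is often the lowest dome-shaped point.

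Within each group, the same libraries were often lowest or highest across the sterol genes. Dome-shaped replicate 1 was the lowest of its group for 10 of the 17 genes, and dome-shaped replicate 2 the highest for 8. Primed replicate 3 was the highest of its group for 9 of the 17, and primed replicate 4 the lowest for 9. Relative to the primed mean, the median sterol gene stood at 0.24, 0.45, 0.37 and 0.28 (log2) in dome-shaped replicates 1 to 4 and at -0.018, -0.040, 0.081 and -0.067 in primed replicates 1 to 4. Every dome-shaped library therefore had a higher median than every primed one, and dome-shaped replicate 4, which stood apart over all genes, lay within the range of the others here. What sets dome-shaped replicate 1 or primed replicate 3 apart was not tested.

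Of 11 other tested genes of sterol synthesis only LBR rose and none fell, a share near that of all genes. Their median log2 fold change was 0.13.

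Fatty acid genes showed 6 rises among 16 tested, none lower, and a median log2 fold change of 0.41, while 6.38% of all genes tested rose. All 3 desaturases rose, with 2 of 6 elongation genes and 1 of 5 genes that supply acetyl-CoA or malonyl-CoA or form palmitate. Neither of the activating enzymes was called. Leaving out any single library left 4 to 8 of the 16 called, while the count of all genes called ranged from 1036 to 2730.

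At the entry of the path, ACLY, which splits citrate to give cytosolic acetyl-CoA, averaged 234 ± 28.8 RPKM in dome-shaped and 239.5 ± 20.6 RPKM in primed cells on a short row and was not called (log2 fold change -0.035, SE 0.10, limma adjusted p = 0.844). A longer ACLY row averaged 134 ± 19.3 RPKM in dome-shaped and 146 ± 14.1 RPKM in primed cells (log2 fold change -0.12, SE 0.11, limma adjusted p = 0.485). ACSS2, which makes acetyl-CoA from acetate, was low: it had 5.13, 1.72, 1.56 and 1.54 RPKM in dome-shaped libraries, against 0.758, 0.844, 1.32 and 0.900 RPKM in primed libraries, from 36 to 239 reads per library. Its groups did not overlap, but dome-shaped replicate 1 stood far above the rest and ACSS2 was not called (log2 fold change 0.73, SE 0.29, limma adjusted p = 0.120). ME1, the malic enzyme that supplies NADPH, had no row by the rule; a row for which 6 of 10 matches name it held 3.32, 7.11, 4.10 and 2.68 RPKM in dome-shaped libraries, against 2.76, 4.46, 7.17 and 3.58 RPKM in primed libraries, with fully mixed groups (log2 fold change -0.056, SE 0.30, limma adjusted p = 0.916).

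ACACA, the cytosolic acetyl-CoA carboxylase that makes malonyl-CoA for synthesis, had 35.98, 32.9, 31.1 and 27.97 RPKM in dome-shaped libraries, against 21.8, 23.4, 20.6 and 22.5 RPKM in primed libraries. It rose without overlap (log2 fold change 0.51, SE 0.095, limma adjusted p = 0.0104). ACACB, the carboxylase whose malonyl-CoA restrains mitochondrial fatty acid uptake, was found in 4 rows. The row taken by the rule held only 40 to 62 reads per library and averaged 4.12 ± 0.537 RPKM in dome-shaped and 3.74 ± 0.593 RPKM in primed cells (log2 fold change 0.11, SE 0.15, limma adjusted p = 0.650), while the longest row had 4.26, 3.14, 3.71 and 3.94 RPKM in dome-shaped libraries, against 1.91, 2.52, 2.59 and 2.51 RPKM in primed libraries and no overlap but was not called (log2 fold change 0.49, SE 0.14, limma adjusted p = 0.0509). FASN, the synthase that builds palmitate, had 64.6, 120.1, 130.1 and 109.5 RPKM in dome-shaped libraries, against 99.7, 113, 122 and 115 RPKM in primed libraries. Its groups overlapped fully, dome-shaped replicate 1 being the lowest of all 8, and FASN was not called (log2 fold change -0.12, SE 0.19, limma adjusted p = 0.699; 95% interval -0.56 to 0.31). The carboxylase of the path rose, and the enzymes on either side of it, ACLY and FASN, were not called. The 95% interval of ACACA, 0.30 to 0.72, overlapped that of FASN but not that of ACLY (-0.26 to 0.19). Whether the changes of these genes differed was not tested.

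Of the elongases ELOVL5, which extends polyunsaturated chains, had the highest RPKM, on a row of 624 bases where those of the other elongases had 1717 to 2960 bases. It had 159, 145, 146 and 126 RPKM in dome-shaped libraries, against 110.2, 83.4, 103 and 84.3 RPKM in primed libraries, higher in every dome-shaped library, and rose (log2 fold change 0.59, SE 0.11, limma adjusted p = 0.0107). ELOVL6, which extends palmitate to stearate, had 40.2, 57.3, 56.2 and 47.9 RPKM in dome-shaped libraries, against 33.97, 34.4, 37.6 and 33.2 RPKM in primed libraries; the groups did not overlap and it rose (log2 fold change 0.51, SE 0.12, limma adjusted p = 0.0213). ELOVL6 was not called without dome-shaped replicate 2 or 3 or primed replicate 2 or 4 (limma adjusted p 0.0580 to 0.0621). ELOVL1, which makes saturated very long chains, averaged 17.3 ± 3.25 RPKM in dome-shaped and 17.4 ± 0.820 RPKM in primed cells and ELOVL4, known from retina and skin, averaged 3.27 ± 0.207 RPKM in dome-shaped and 2.88 ± 0.251 RPKM in primed cells. Neither was called. HACD3, a dehydratase of the elongation cycle, had 89.9, 92.3, 88.5 and 76.8 RPKM in dome-shaped libraries, against 74.7, 72.9, 78.6 and 73.3 RPKM in primed libraries, with an overlap of dome-shaped replicate 4 with primed libraries, and was not called (log2 fold change 0.21, SE 0.075, limma adjusted p = 0.0925).

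ELOVL2, which extends long polyunsaturated chains further, had the largest log2 fold change of the members but was not called. It had 6.31, 4.61, 5.81 and 0.715 RPKM in dome-shaped libraries, against 1.22, 0.740, 1.78 and 0.749 RPKM in primed libraries. Dome-shaped replicates 1 to 3 lay above all primed libraries, and dome-shaped replicate 4 lay below all of them (log2 fold change 1.17, SE 0.43, limma adjusted p = 0.101). Without dome-shaped replicate 4 it was called, with a log2 fold change of 1.65 (limma adjusted p = 0.00235), and HACD3 was called as well (log2 fold change 0.27, limma adjusted p = 0.0291), which brought the fatty acid count to 8. ELOVL2 was low throughout, with 23 to 229 reads per library. It reached 1 RPKM only in dome-shaped replicates 1 to 3 and primed replicates 1 and 3, so primed libraries alone would not have brought it past the filter.

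The summed RPKM of the 5 elongases was 224, 231, 229.7 and 192 RPKM in dome-shaped replicates 1 to 4, against 167, 138, 162 and 139 RPKM in primed replicates 1 to 4, without overlap. Because the rows differ in length, shares of that sum are rough between genes and are compared here between groups. ELOVL5 made up 62.8% to 70.8% in dome-shaped libraries and 60.5% to 66.1% in primed libraries. ELOVL1 made up 6.91% to 9.10% in dome-shaped libraries and 10.45% to 12.95% in primed ones, without overlap. Its level averaged 17.3 RPKM in dome-shaped and 17.4 RPKM in primed cells, so its lower share follows from the higher sum. Most of that sum came from ELOVL5 and ELOVL6, which both rose. Neither the sum nor the share is therefore a separate result.

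SCD, which introduces the double bond of oleate and palmitoleate, had 190.4, 222, 216 and 233 RPKM in dome-shaped libraries, against 156, 158, 128 and 143 RPKM in primed libraries; every dome-shaped library lay above every primed one and SCD rose (log2 fold change 0.55, SE 0.091, limma adjusted p = 0.00671). FADS2, which opens polyunsaturated synthesis from linoleate and linolenate, had 101, 125, 134 and 105 RPKM in dome-shaped libraries, against 81.3, 85.95, 75.9 and 85.1 RPKM in primed libraries and rose without overlap (log2 fold change 0.49, SE 0.10, limma adjusted p = 0.0145). FADS1, which acts after it towards arachidonate, had 47.7, 49.2, 44.2 and 36.8 RPKM in dome-shaped libraries, against 31.8, 29.1, 35.2 and 23.5 RPKM in primed libraries. Its lowest dome-shaped library, replicate 4, lay just above its highest primed library, replicate 3, and FADS1 rose (log2 fold change 0.56, SE 0.14, limma adjusted p = 0.0267). FADS1 was not called without dome-shaped replicate 1, 2 or 3 or primed replicate 2 or 4 (limma adjusted p 0.0567 to 0.0773). The ratio of FADS2 to FADS1 RPKM was 2.12 to 3.03 in dome-shaped libraries and 2.16 to 3.62 in primed ones, with overlapping ranges.

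The enzymes that activate free fatty acids to acyl-CoA were not called. ACSL3, found on lipid droplets, averaged 36.5 ± 6.57 RPKM in dome-shaped and 30.1 ± 5.75 RPKM in primed cells (log2 fold change 0.27, SE 0.16, limma adjusted p = 0.278). ACSL4, which prefers arachidonate, averaged 23.4 ± 2.02 RPKM in dome-shaped and 18.6 ± 4.001 RPKM in primed cells (log2 fold change 0.34, SE 0.14, limma adjusted p = 0.142). ACSL4 was called without primed replicate 1 (limma adjusted p = 0.0291).

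**Figure D3:**
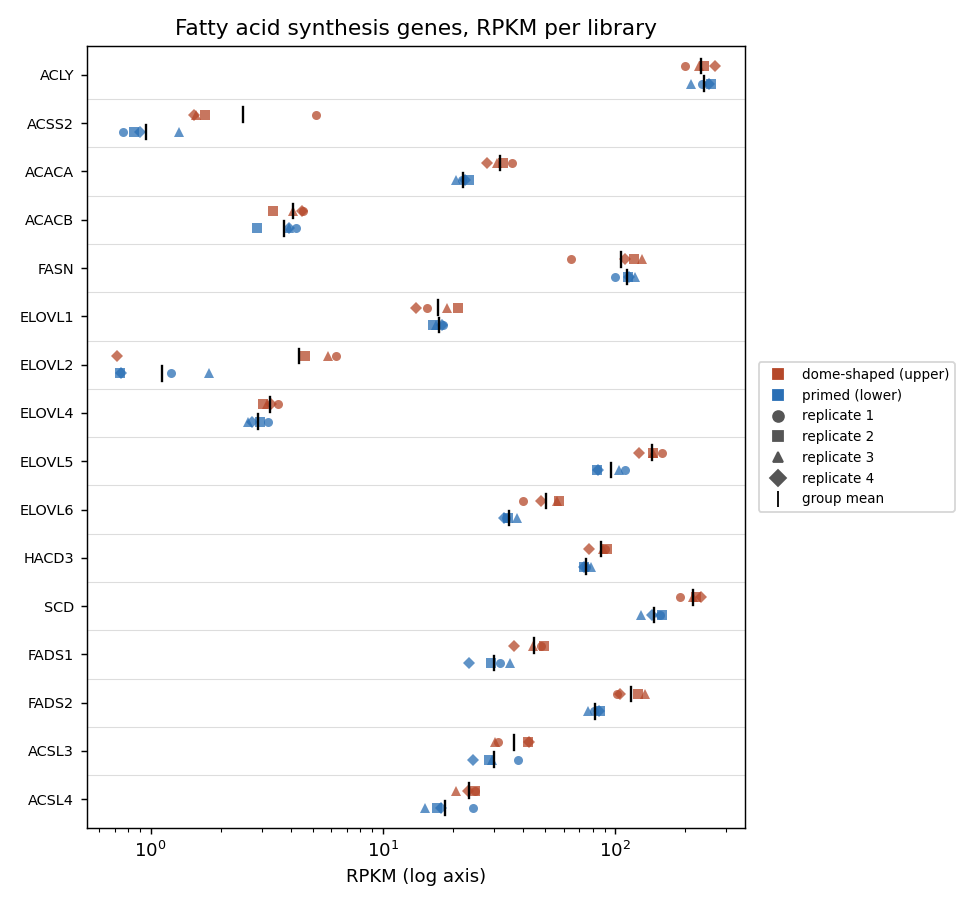
RPKM (log axis) of the 16 tested fatty acid genes in each library, dome-shaped above primed for each gene, with the symbol shape giving the replicate and the bar the group mean. SCD, FADS1, FADS2, ELOVL5, ELOVL6, ACACA and ACSS2 have no overlap, while the ELOVL2 value of dome-shaped replicate 4 sits at the low end with the primed libraries.

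Among 24 other tested genes tied to fatty acid and glyceride synthesis 4 rose and 1 fell, with a median log2 fold change of 0.052. Of all genes tested, 6.38% rose and 7.96% fell. IDH1, a cytosolic source of NADPH, averaged 117 ± 28.6 RPKM in dome-shaped and 66.2 ± 4.11 RPKM in primed cells and rose (log2 fold change 0.78, SE 0.15, limma adjusted p = 0.0112). LPIN1, a phosphatidate phosphatase, averaged 12.9 ± 2.57 RPKM in dome-shaped and 7.78 ± 1.69 RPKM in primed cells and rose (log2 fold change 0.66, SE 0.18, limma adjusted p = 0.0431). LPIN1 was not called without dome-shaped replicate 1, 2 or 4 or primed replicate 1, 2, 3 or 4 (limma adjusted p 0.0541 to 0.103). AGPAT2, which makes phosphatidate, averaged 8.19 ± 1.12 RPKM in dome-shaped and 13.9 ± 2.74 RPKM in primed cells and fell (log2 fold change -0.68, SE 0.15, limma adjusted p = 0.0202). AGPAT2 was not called without dome-shaped replicate 2 or 3 or primed replicate 2 (limma adjusted p 0.0510 to 0.0587). HSD17B12, a reductase of the elongation cycle, and PGD, an NADPH-producing enzyme of the pentose phosphate path, also rose, with log2 fold changes of 0.37 (limma adjusted p = 0.0107) and 0.50 (limma adjusted p = 0.0197); both were singled out after their values were seen. PGD was not called without dome-shaped replicate 2 or primed replicate 3 (limma adjusted p 0.0535 to 0.0574). Of 18 tested genes of fatty acid oxidation, the opposing path, none rose and 1 fell. That is 5.56% called, from 1 gene, beside 14.3% of all genes called in either direction and 7.96% that fell. With 18 genes this is not read as a difference from all genes. Their median log2 fold change was -0.13. The gene that fell was CPT2, the inner-membrane carnitine transferase, at 14.5 ± 1.702 RPKM in dome-shaped and 18.8 ± 0.709 RPKM in primed cells (log2 fold change -0.35, SE 0.10, limma adjusted p = 0.0471). CPT2 was not called without dome-shaped replicate 2, 3 or 4 or primed replicate 1, 2, 3 or 4 (limma adjusted p 0.0672 to 0.119).

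None of the 5 regulators was called by limma, with log2 fold changes of 0.039 to 0.57. On the rows taken by the rule none had an unadjusted limma p below 0.05. SREBF2, the SREBP gene tied mainly to sterol synthesis, had 134, 99.6, 99.8 and 107 RPKM in dome-shaped libraries, against 101, 107, 110.1 and 104 RPKM in primed libraries, with dome-shaped replicate 1 highest and the rest mixed (log2 fold change 0.052, SE 0.099, limma adjusted p = 0.755; 95% interval -0.17 to 0.28). SREBF1, tied mainly to fatty acid synthesis, averaged 13.8 ± 1.27 RPKM in dome-shaped and 12.1 ± 2.57 RPKM in primed cells on the row taken by the rule (log2 fold change 0.20, SE 0.15, limma adjusted p = 0.391) and 19.8 ± 0.892 RPKM in dome-shaped and 17.3 ± 2.61 RPKM in primed cells on a longer row with more reads (log2 fold change 0.19, SE 0.12, limma adjusted p = 0.278). SCAP, the escort, had 38.5, 37.9, 38.9 and 35.05 RPKM in dome-shaped libraries, against 25.5, 39.6, 38.8 and 45.3 RPKM in primed libraries; the primed libraries spanned the dome-shaped range on both sides (log2 fold change 0.039, SE 0.16, limma adjusted p = 0.887; 95% interval -0.31 to 0.39). RNA levels say nothing of SREBP cleavage, which was not measured.

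INSIG1, which retains SCAP and is itself a known SREBP target, had 14.2, 23.1, 17.9 and 28.6 RPKM in dome-shaped libraries, against 10.1, 12.9, 21.01 and 11.3 RPKM in primed libraries over 71 to 174 reads. Primed replicate 3 lay among the dome-shaped libraries and INSIG1 was not called (log2 fold change 0.57, SE 0.25, limma adjusted p = 0.160). A second short row of the gene averaged 15.1 ± 2.88 RPKM in dome-shaped and 10.97 ± 3.01 RPKM in primed cells and was not called (log2 fold change 0.44, SE 0.19, limma adjusted p = 0.145). STARD4, a carrier of cholesterol between membranes, had 13.9, 17.2, 14.4 and 18.8 RPKM in dome-shaped libraries, against 10.6, 14, 13.5 and 13.5 RPKM in primed libraries; dome-shaped replicate 1 overlapped a primed library, and it was not called (log2 fold change 0.30, SE 0.13, limma adjusted p = 0.163). INSIG2, the second retention protein, averaged 3.85 ± 0.549 RPKM in dome-shaped and 2.90 ± 0.518 RPKM in primed cells without overlap and was not called (log2 fold change 0.32, SE 0.16, limma adjusted p = 0.197).

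**Figure D4:**
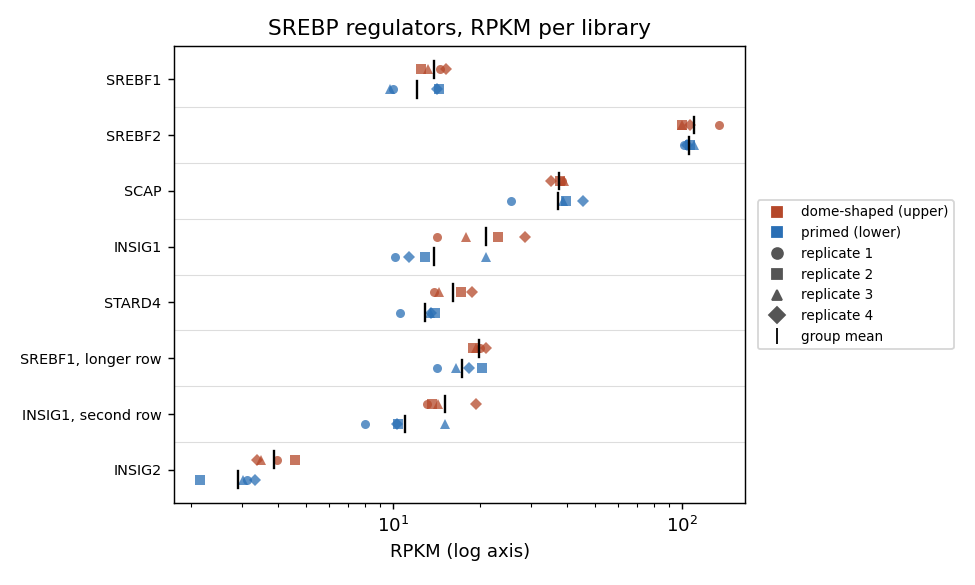
RPKM (log axis) of the 5 regulators, of a further row each for SREBF1 and INSIG1, and of INSIG2 in each library, dome-shaped above primed, with the symbol shape giving the replicate and the bar the group mean. SREBF2 and SCAP means nearly coincide, while INSIG2 has no overlap between the groups.

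Of 12 tested genes of SREBP processing and sterol sensing 1 rose and none fell, a share near that of all genes, of which 6.38% rose. The gene was ERLIN1, which takes part in the degradation of endoplasmic reticulum proteins. It averaged 33.8 ± 4.49 RPKM in dome-shaped and 25.1 ± 1.92 RPKM in primed cells (log2 fold change 0.41, SE 0.11, limma adjusted p = 0.0404). ERLIN1 was not called without dome-shaped replicate 1, 2 or 3 or primed replicate 1, 2, 3 or 4 (limma adjusted p 0.0560 to 0.113).

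**Figure D5:**
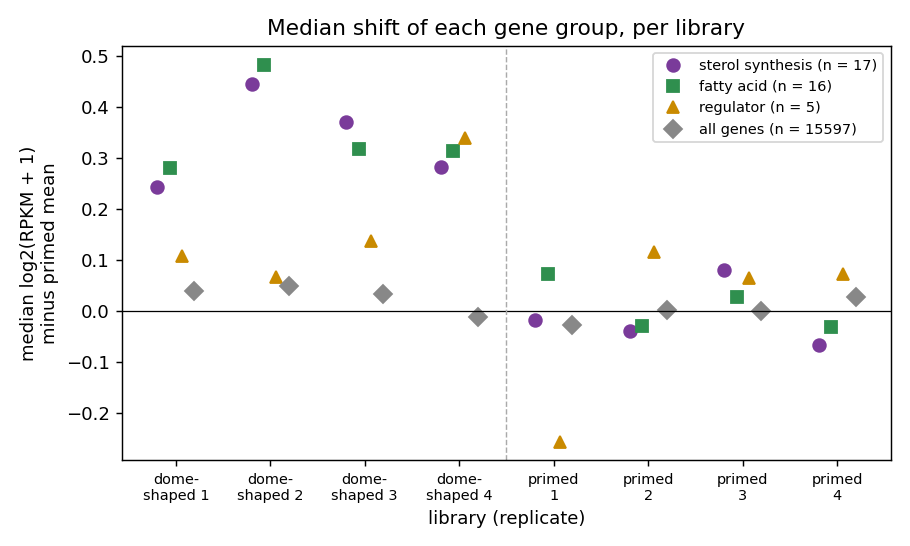
Median log2(RPKM + 1) minus the primed mean (vertical axis) over the genes of each group, for each of the 8 libraries, dome-shaped on the left. Sterol and fatty acid medians are 0.24 to 0.48 in the 4 dome-shaped libraries and -0.067 to 0.081 in the 4 primed ones, while the medians of all genes lie between -0.028 and 0.050 and the regulators overlap.

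For the fatty acid genes the medians per library were 0.28, 0.48, 0.32 and 0.32 in dome-shaped replicates 1 to 4, against 0.073, -0.029, 0.027 and -0.032 in primed replicates 1 to 4. For the 5 regulators they were 0.11, 0.067, 0.14 and 0.34 in dome-shaped replicates 1 to 4, against -0.26, 0.12, 0.066 and 0.072 in primed replicates 1 to 4, so regulator medians overlapped between the groups. The library titles carry a number after CES whose meaning is not given. Dome-shaped replicates 1 to 4 carry the numbers 1, 1, 2 and 3, and primed replicates 1 to 4 the numbers 1, 2, 3 and 3. Within the numbers 1, 2 and 3, the median difference of dome-shaped minus primed means was 0.41, 0.39 and 0.31 for sterol genes and 0.34, 0.39 and 0.31 for fatty acid genes. For regulators it was 0.51, -0.026 and 0.35. With 1 or 2 libraries a group in each number these are values with no test.

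Markers of other cell types differed between the groups too. All 7 epithelial markers fell, with a summed level of 205 to 353 RPKM in dome-shaped and 742 to 868 RPKM in primed libraries, and 3 of 6 pluripotency genes fell (1661 to 2488 RPKM summed in dome-shaped and 2496 to 3042 RPKM in primed libraries). Of 5 tested markers of fibroblasts and mesenchyme VIM and FBN1 rose, and the list summed to 550 to 952 RPKM in dome-shaped and 161 to 529 RPKM in primed libraries. VIM alone sets the sums apart: without it they were 93.5 to 184 RPKM in dome-shaped and 106 to 173 RPKM in primed libraries and overlapped. The largest part of what remained was COL3A1 in each library, on a row of only 94 bases with 82 to 204 reads. The overlap therefore rests largely on a short row, and a further COL3A1 row of 2729 bases was not used. COL3A1 (60.5 to 151 RPKM in dome-shaped and 62.3 to 83.8 RPKM in primed libraries), THY1 (9.70 to 22.9 RPKM in dome-shaped and 15.3 to 52.2 RPKM in primed libraries) and COL1A2 (3.35 to 8.49 RPKM in dome-shaped and 5.44 to 53.3 RPKM in primed libraries) were detected throughout and not called, with log2 fold changes of 0.36, -0.86 and -1.14. The rows taken for COL1A1, LUM, DCN and POSTN lay below the filter. LUM reached 11.8 RPKM in primed replicate 3. DCN and POSTN stayed at or below 0.126 RPKM in dome-shaped and 0.148 RPKM in primed libraries. The COL1A1 row had 1389 bases. A further COL1A1 row of 4383 bases, for which 7 of 10 matches name the gene, was not used. Its level is not given here, so the low row does not show that COL1A1 was absent. Adipocyte markers were low, and the 7 genes found all lay below the filter. They summed to 1.16 to 1.73 RPKM in dome-shaped and 0.562 to 2.70 RPKM in primed libraries. Of the hepatocyte markers ALB reached at most 0.0664 RPKM in dome-shaped and 0.106 RPKM in primed libraries. APOA1 was detected throughout, at 5.57 to 43.9 RPKM in dome-shaped and 8.06 to 21.7 RPKM in primed libraries. The hepatocyte and visceral endoderm list summed to 8.40 to 45.6 RPKM in dome-shaped and 15.1 to 34.2 RPKM in primed libraries, and of its 2 tested genes AFP fell and APOA1 was not called. Of 3 tested neural markers FABP7 rose, and the list summed to 240 to 359 RPKM in dome-shaped and 208 to 427 RPKM in primed libraries. Most of that sum was NES (log2 fold change 0.028), so it does not show the lower genes. FABP7 averaged 4.07 RPKM in dome-shaped and 0.781 RPKM in primed cells, and passed the filter only through dome-shaped libraries. TUBB3 averaged 15.3 RPKM in dome-shaped and 4.49 RPKM in primed cells and was not called (log2 fold change 1.28, limma adjusted p = 0.115). The part of these shifts in the changes of lipid genes was not tested.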

How the data were processed

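Polyadenylated RNA of 4 dome-shaped and 4 primed ESC libraries was measured. The authors deposited 1 table of RPKM values per gene and library, with protein matches whose percent identity was also deposited by the authors; the submitters' processing notes name TopHat2 2.0.9, Bowtie2 2.0.6 and HTSeq 0.6.1. No source used here names the genome build or annotation, and no strand-specific step is recorded, so overlapping antisense transcripts cannot be separated. Of 33138 rows 17 were blank and left out. Columns of other samples numbered 0. The columns of dome-shaped replicates 1 to 3 carry shortened titles and were assigned because no other title without a column of its own matches them.

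A gene was tested if 4 or more libraries had 1 RPKM or more, and values were compared on log2(RPKM + 1) with limma 3.58.1 in R 4.3.3 (mean trend, two-sided, no covariates, Benjamini-Hochberg adjustment over all 15597 genes). The fit was tested on simulated data. RPKM times gene length came in steps that gave the depth, but only 71.8% to 73.7% of low values (below 50 reads) came out whole to within 0.01 read, so no count test was run. The members, the lists and the tests were chosen with earlier results of these data known. All members are named, and of the other lists the called genes among the 3 largest changes with at least 5 RPKM in the higher group, plus INSIG2; some genes that this rule takes are not reported here. Alternatives were another pseudocount, 2 other filters, 2 scalings, a block, no mean trend, 95% identity, another rule for rows (at least 5 of 10 matches naming the gene, chosen after seeing the data) and each library left out. Sequences are not shown.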

Additional observations from a re-analysis of the deposited data

Results flagged for a closer look

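In 5 of 76 groups of 4 libraries 1 library lay far from the other 3, as judged by its gap to the nearest library divided by the range of the group on the log2(RPKM + 1) scale; chance alone would give about 1 in 20. Dome-shaped replicate 1 was the outlying library for 3 genes. ACSS2 had 5.13 RPKM there and 1.54 to 1.72 RPKM in the other dome-shaped libraries (gap over range 0.924). TM7SF2 had 24.5 RPKM there and 14.9 to 15.8 RPKM in the other dome-shaped libraries (0.891), and DHCR7 had 55.7 RPKM there and 73.1 to 77.1 RPKM in the others (0.838). The CYP51A1 value of primed replicate 3 was 26.4 RPKM, against 18.01 to 18.8 RPKM in the other primed libraries (0.892). The STARD4 value of primed replicate 1 was 10.6 RPKM, against 13.5 to 14 RPKM in the other primed libraries (0.860). What sets these libraries apart was not tested.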

How the results depend on the processing

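Of the 13 members that rose, 7 (FDPS, MSMO1, NSDHL, ACACA, ELOVL5, SCD and FADS2) were called under every alternative run and with each library left out, and no called member changed sign. The other 6 lost their call in at least 1 fit without a library, and SQLE also without the filter (limma adjusted p = 0.0539). Outside the members, ERLIN1, LPIN1 and CPT2 were not called without the filter (limma adjusted p = 0.0575, 0.0702 and 0.0573), and ERLIN1 and CPT2 not without the mean trend (0.0558 and 0.0502). With single libraries left out, all genes called ranged from 1036 to 2730 (2237 with all 8), sterol genes called from 3 to 9 (7 with all 8), fatty acid genes called from 4 to 8 (6 with all 8) and regulators stayed at 0. Changes of sign occurred only among members that were not called, as log2 fold changes with 1 library left out. ACLY ranged from -0.10 to 0.040 (0.0033 without primed replicate 2), FASN from -0.24 to 0.095 and ELOVL1 from -0.11 to 0.076 (0.025 without dome-shaped replicate 1). SREBF2 ranged from -0.046 to 0.096 and SCAP from -0.13 to 0.14. A replicate block on the CES number of the titles gave 896 genes called (303 higher and 593 lower), 3 sterol genes and 4 fatty acid genes; the same 6 members lost their call. Deviations of same-numbered libraries from different groups correlated at -0.0975 to 0.125, and those of differently numbered ones at -0.223 to 0.201. The number was therefore not taken to pair libraries. Dome-shaped replicate 4 and primed replicate 4 share a longer part of their titles, and their deviations correlated at 0.00528. Same-numbered libraries within a group were not compared. Quantile or median-of-ratios scaling moved the median log2 fold change of all genes from 0.026 to 0.039 and 0.0049, and left the member counts at 7, 6 and 0. At 95% identity MVD, TM7SF2, HSD17B7 and FADS1 had no row and the counts were 7, 5 and 0. With another rule for rows, chosen after seeing the data, the counts were also 7, 6 and 0. Depth limits ACSS2, ELOVL2, ELOVL4, ACACB, SREBF1, INSIG1 and STARD4, whose rows by the rule had at most 239 reads in any library, and the longest ACACB row had at most 263.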
